A study of Glycine max with 20 samples.

Results

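The leaf transcriptomes of 2 soybean (Glycine max) lines, called BC and W, were compared early after aphids were placed on the plants. The comparison used 8 of the 20 RNA-seq libraries of the study: 4 of BC and 4 of W, each with 2 biological replicates at 4 h and 2 at 8 h. The libraries were chosen by line and hour alone, and the hour entered the test as a covariate. Only rows of the count table that name a soybean gene model were used, 66210 in all, of which 37614 had enough reads in these 8 libraries to be tested.

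The study sampled leaves of near-isogenic lines. The labels give the genotype of one as rag2, susceptible to aphids, and of the other as Rag2, resistant. Both lines were sampled without aphids (0 h) and 4, 8, 24 and 48 h into infestation. All 8 early libraries come from infested leaves, and no uninfested leaf was sampled at 4 or 8 h, so infestation and hour cannot be told apart within a line. The columns of the count table name the lines W and BC, and nothing in the table or the labels ties either name to Rag2. Differences are therefore given as BC minus W, with no direction relative to resistance. The labels do not say whether plants were pooled for a library.

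The soybean aphid feeds by inserting its stylets into the phloem of the leaf. Rag loci are soybean loci that give resistance to it, and Rag2 has been mapped to chromosome 13. Near-isogenic lines are bred by repeated backcrossing, so they share most of their genome and differ at the selected locus and at whatever was carried along with it. A transcript that differs between such lines can do so in every leaf, infested or not, or only once aphids feed. The libraries at 4 and 8 h show the difference early in infestation, and those at 0, 24 and 48 h show whether it is present at other times.

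The gene models carry names of the Glyma series, and no file gives a gene name or function for them. None of the 66210 matched the reference gene table at hand, so no function is given here, and no leaf marker could be looked up to check the tissue label. Each name holds the chromosome number, then the letter g, then a number that rises along the chromosome and is called the locus number here.

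The early libraries held 9607642 to 25994150 reads in gene models, with a read in 42746 to 46483 models each. The replicates of W correlated at r = 0.960 at 4 h and 0.964 at 8 h over the log2 CPM (counts scaled by library size) of the tested models, and those of BC at 0.922 and 0.927. On the first principal component (46.9% of the variance), replicate 1 of BC at 4 h (score 102) and replicate 2 of BC at 8 h (116) stood apart from the rest. Replicate 2 of BC at 4 h lay at -38.9, within the range of the W libraries (-73.8 to -7.04), and replicate 1 of BC at 8 h lay at 18.6. The models that rose most along this axis differed strongly within BC, and those that fell most differed strongly within W. Glyma02g37990.1 was at 229 and 7.63 CPM in the BC replicates at 4 h and at 10.7 and 327 CPM at 8 h. It was at no more than 0.110 CPM in any W library. Glyma01g34300.1 was at 360.5 and 1.77 CPM in the W replicates at 4 h and at 393.6 and 37.75 CPM at 8 h. In the BC libraries it was at 0.533 to 18.2 CPM. The hour labels of BC were checked with the 72 models that separated 4 h from 8 h in W by a gap of over 2 on the log2 scale, 29 of them higher and 43 lower at 8 h. The score of a library was its mean log2 CPM over the 29 models minus that over the 43. It was -1.97 and -2.22 in W at 4 h and 4.29 and 4.25 in W at 8 h. In BC it was -1.23 and -1.33 at 4 h and 3.68 and 4.09 at 8 h, so all 4 BC libraries lay on the side of their labelled hour.

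**Figure D1:**
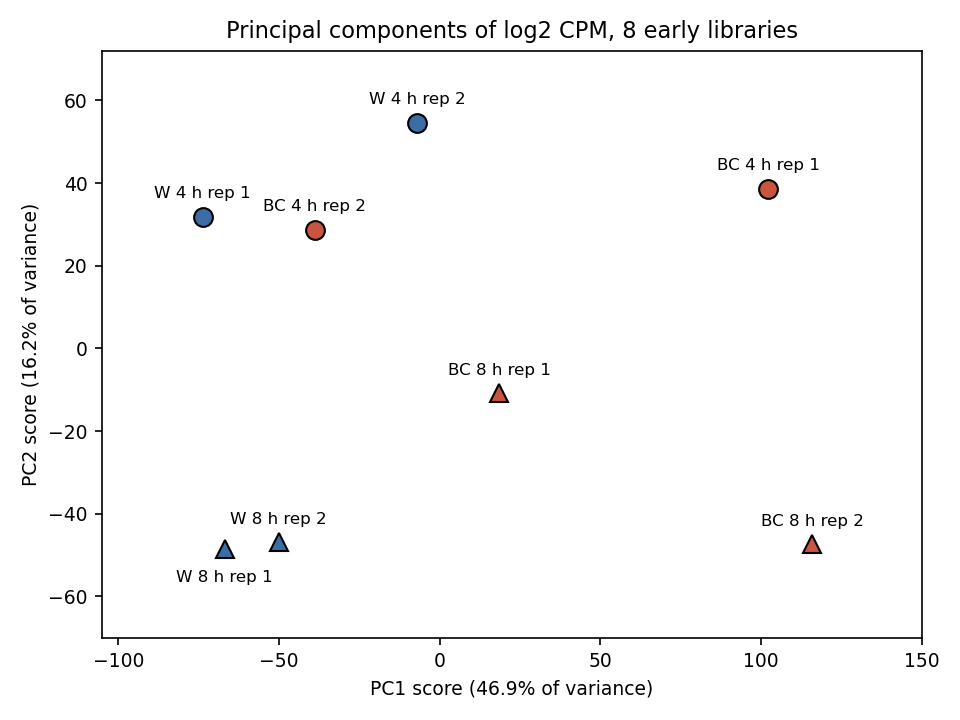
Principal components 1 and 2 of log2 CPM over the tested models, 1 point per early library (circles 4 h, triangles 8 h, blue W, red BC; each axis gives the score and its share of the variance). Replicate 1 of BC at 4 h and replicate 2 of BC at 8 h lie far to the right, at 102 and 116. The second component separates 4 h from 8 h in both lines.

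Over both hours, 18 gene models differed between the lines, 10 higher and 8 lower in BC (edgeR quasi-likelihood test, adjusted p below 0.05). They are 0.0479% of the 37614 models tested. The differences were large: the absolute log2 fold changes of the 18 had a median of 2.62 and a range of 1.64 to 9.63, against a median of 0.224 over all models tested. All 18 differed by more than 2-fold, 14 by more than 4-fold and 7 by more than 16-fold. In each of the 18, the 4 BC libraries and the 4 W libraries did not overlap, as in 4.47% of all models tested. The difference had the same sign at 4 h and at 8 h, which follows in part from choosing the models over both hours. Chromosome 13 held 8 of the 18, chromosome 6 held 3, chromosomes 2 and 11 held 2 each, and chromosomes 1, 9 and 14 held 1 each. At an unadjusted p below 0.05 there were 4865 models (12.9%), 3248 higher and 1617 lower in BC.

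**Figure D2:**
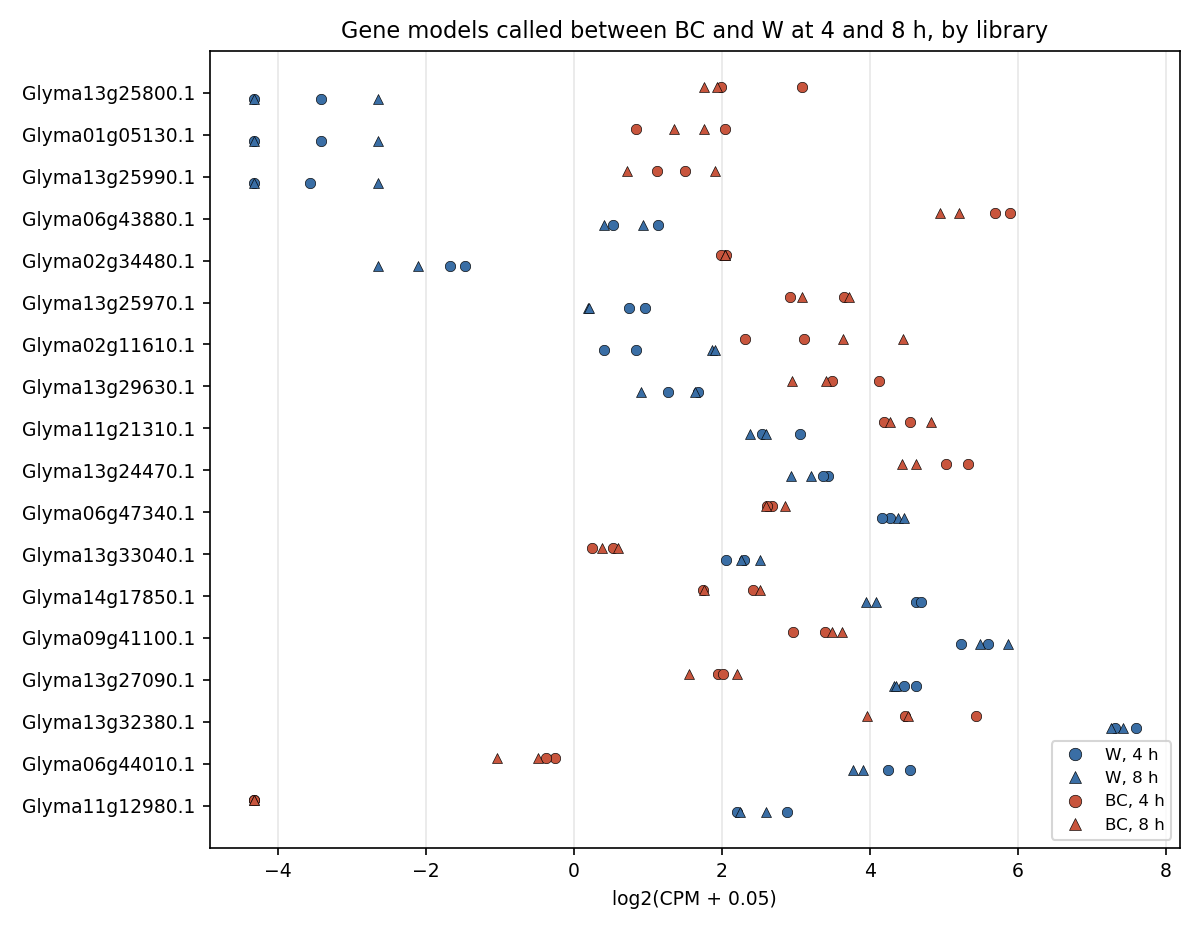
Level of each of the 18 called gene models in the 8 early libraries, as log2(CPM + 0.05) on the horizontal axis (circles 4 h, triangles 8 h, blue W, red BC; 1 point per library). In every row the blue and red points are separate. The lowest position, left of -4, stands for libraries without a read.

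The smallest adjusted p-values belonged to a pair of models on chromosome 6 that moved in opposite directions. Glyma06g43880.1 was at 51.7 and 59.8 CPM in BC at 4 h and at 37.0 and 30.9 CPM at 8 h, and at 2.16, 1.39, 1.86 and 1.28 CPM in the corresponding W libraries. Glyma06g44010.1 was at 0.791, 0.721, 0.440 and 0.666 CPM in BC and at 19.0, 23.2, 15.0 and 13.6 CPM in W. The lowest BC library of the first model lay above its highest W library by far, and the reverse held for the second. The log2 fold change was 4.75 (standard error, SE, 0.22, edgeR adjusted p = 1.52e-04) for Glyma06g43880.1 and -4.71 (standard error 0.19, edgeR adjusted p = 8.39e-05) for Glyma06g44010.1. Their locus numbers, 43880 and 44010, are close, and whether they share reads was not tested. Another model of this chromosome, Glyma06g47340.1, was lower in BC, at 6.39 and 6.08 CPM at 4 h and 7.17 and 5.99 CPM at 8 h against 19.4, 17.9, 20.8 and 22.1 CPM in W. Its 4 libraries lay close together within each line, and its log2 fold change of -1.64 (standard error 0.12, edgeR adjusted p = 0.00327) was among the smallest of the 18.

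In 4 models, 1 of the lines had almost no reads in its early libraries. Glyma11g12980.1, on chromosome 11, had 0 reads in the 4 BC libraries and 430 in the 4 W libraries, where it was at 7.35 and 4.56 CPM at 4 h and 6.02 and 4.70 CPM at 8 h. Against a floor of 3 reads over the BC libraries, it was at least 120.3-fold lower in BC (edgeR adjusted p = 0.0190). Glyma13g25800.1 had 315 reads in BC, at 8.46, 3.92, 3.33 and 3.77 CPM, and 2 reads in W, 1 at each hour. The other models of this kind were also higher in BC, which held nearly all of their reads in all 4 of its libraries. Per scaled library size the BC to W ratio of Glyma13g25800.1 was 188, with an exact 95% counting interval of 51.5 to 1557 (edgeR adjusted p = 0.00828). Glyma13g25990.1, also on chromosome 13, was at 2.13 and 2.78 CPM in BC at 4 h and 3.71 and 1.60 CPM at 8 h, with 2 reads in W against 157 in BC, a ratio of 93.6 (25.5 to 779; edgeR adjusted p = 0.0227). With library weights in limma its adjusted p was 0.0530. Glyma01g05130.1, on chromosome 1, was at 4.08 and 1.75 CPM and at 2.52 and 3.33 CPM in BC, with 2 reads in W against 199, a ratio of 119 (32.4 to 986; edgeR adjusted p = 0.0190). These intervals and the floor cover counting error only.

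Glyma02g34480.1, on chromosome 2, was higher in BC and very even there. It was at 4.14 and 3.92 CPM at 4 h and 4.09 and 4.08 CPM at 8 h in BC, and at 0.264, 0.313, 0.110 and 0.183 CPM in W, a log2 fold change of 4.10 (standard error 0.29, edgeR adjusted p = 0.00243). Glyma02g11610.1, on the same chromosome, was far less even. In BC it was at 8.64 and 4.95 CPM at 4 h and at 12.5 and 21.8 CPM at 8 h, and in W at 1.28, 1.74, 3.61 and 3.73 CPM. Its level was higher at 8 h than at 4 h in both lines, so the gap between the lines stayed alike on the log2 scale, 2.18 at 4 h and 2.23 at 8 h (over both hours 2.20, standard error 0.26, edgeR adjusted p = 0.0346). Glyma11g21310.1, on chromosome 11, was at 23.2, 18.2, 19.2 and 28.4 CPM in BC and at 8.28, 5.77, 5.15 and 5.99 CPM in W (log2 fold change 1.83, SE 0.21, edgeR adjusted p = 0.0346).

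Chromosome 13 held 3 further models that were higher in BC. Glyma13g25970.1 was at 12.5 and 7.52 CPM in BC at 4 h and at 13.1 and 8.48 CPM at 8 h, against 1.89, 1.64, 1.10 and 1.10 CPM in W (log2 fold change 2.86, SE 0.28, edgeR adjusted p = 0.0152). Glyma13g29630.1 was at 17.4, 11.2, 7.67 and 10.6 CPM in BC and at 2.38, 3.17, 3.07 and 1.83 CPM in W (log2 fold change 2.17, SE 0.25, edgeR adjusted p = 0.0346). Glyma13g24470.1 had the smallest fold change of the higher models, with 40.3 and 32.8 CPM at 4 h and 24.5 and 21.6 CPM at 8 h in BC, against 10.7, 10.3, 9.20 and 7.64 CPM in W (log2 fold change 1.64, SE 0.14, edgeR adjusted p = 0.00828). It was lower at 8 h than at 4 h in both lines, and the lowest BC library was still above the highest W library.

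The lower models of chromosome 13 were 3. Glyma13g27090.1 was at 3.83, 4.02, 2.89 and 4.57 CPM in BC and at 24.7, 22.1, 20.0 and 20.4 CPM in W (log2 fold change -2.49, SE 0.17, edgeR adjusted p = 0.00215). Glyma13g32380.1 was at 22.3 and 43.2 CPM in BC at 4 h and at 22.8 and 15.6 CPM at 8 h, against 193, 158, 153 and 172 CPM in W (log2 fold change -2.75, SE 0.28, edgeR adjusted p = 0.0190). Its W libraries were more even than its BC libraries, and the highest BC library lay well below the lowest W library. Glyma13g33040.1 was at 1.399, 1.13, 1.26 and 1.47 CPM in BC and at 4.89, 4.11, 5.70 and 4.77 CPM in W (log2 fold change -1.86, SE 0.20, edgeR adjusted p = 0.0241).

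The remaining lower models lay on chromosomes 9 and 14. Glyma09g41100.1 was at 7.73 and 10.5 CPM in BC at 4 h and at 12.3 and 11.2 CPM at 8 h, against 48.3, 37.6, 58.6 and 44.8 CPM in W (log2 fold change -2.19, SE 0.17, edgeR adjusted p = 0.00327). Glyma14g17850.1 was at 5.29, 3.30, 3.33 and 5.68 CPM in BC and at 24.7, 25.7, 16.9 and 15.4 CPM in W (log2 fold change -2.17, SE 0.24, edgeR adjusted p = 0.0285). In W it was lower at 8 h than at 4 h, while in BC the hours overlapped.

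The threshold fell between models of similar size. The last models inside it, Glyma13g29630.1 and Glyma02g11610.1, had an edgeR adjusted p of 0.0346 each. The first outside were Glyma07g05420.1 (log2 fold change 1.74, edgeR adjusted p = 0.0614), Glyma01g01570.1 (1.297, 0.0635) and Glyma13g29650.1 (-4.23, 0.0635).

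The count depended on single libraries more than the values did. Leaving out replicates 1 and 2 of W at 4 h in turn gave 6 and 11, with 8 and 5 for those of W at 8 h, and 10 and 12 for those of BC at 8 h. Leaving out replicate 1 of BC at 4 h gave 9, and leaving out replicate 2 gave 934, 817 of them higher in BC. The latter library was the BC library nearest to W on the first principal component. With both BC libraries that stood apart left out, 8 models were called, 6 of them among the 18. When 1 library was left out at a time (8 cases), 5 of the 18 models were called each time: Glyma06g43880.1, Glyma06g44010.1, Glyma02g34480.1, Glyma13g27090.1 and Glyma09g41100.1. Glyma06g47340.1 was lost in 1 case, Glyma13g24470.1 and Glyma13g25800.1 in 2, Glyma11g12980.1 in 3 and Glyma13g25970.1 in 5. Glyma13g25990.1, Glyma13g32380.1 and Glyma14g17850.1 were lost in 6. The calls of Glyma01g05130.1, Glyma11g21310.1, Glyma13g29630.1, Glyma13g33040.1 and Glyma02g11610.1 were lost in 7 of the 8 cases. The 3 models Glyma06g43880.1, Glyma06g44010.1 and Glyma13g27090.1 were called in each of the 19 alternatives run. No fold change of the 18 changed sign in any of them.

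Taking each hour alone (2 libraries per line), 2 models differed at 4 h and 2 at 8 h, 0.00532% of the models tested at each hour (edgeR). At both hours they were Glyma06g43880.1 and Glyma06g44010.1. At 4 h Glyma06g43880.1 differed by a log2 fold change of 4.98 ± 0.30 (SE, edgeR adjusted p = 0.00685), and at 8 h by 4.47 ± 0.31 (SE, edgeR adjusted p = 0.0186). Glyma06g44010.1 differed by -4.78 ± 0.29 and -4.64 ± 0.28 at these hours (SE, edgeR adjusted p = 0.00685 and 0.0145). At 4 h the count was 0 without any 1 of the 4 W libraries and 1 without replicate 1 of BC at 4 h. At 8 h it was 0 without any 1 of the 4 libraries of 8 h and 1 without replicate 2 of BC at 4 h. DESeq2 called 44 models at 4 h and 104 at 8 h, limma with library weights 1 and 0, and at an unadjusted p below 0.05 edgeR had 1387 and 3602.

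Whether the line difference changed from 4 h to 8 h was tested as an interaction, and edgeR called 0 of 37614 models (744, or 1.98%, at an unadjusted p below 0.05, DESeq2 1, limma 0). None of the 18 had an unadjusted interaction p below 0.05, and the median absolute change of their log2 fold change from 4 h to 8 h was 0.47. The 18 were picked from these same libraries by a fit that counts a change of the gap between hours as spread. A like gap at both hours thus follows in part from the choice. The 4 models with the smallest interaction p, none of them called, crossed over between the hours. Glyma11g29880.1 was at 2.07 and 1.75 CPM in BC at 4 h and 0.943 and 1.15 CPM at 8 h, while W went from 1.45 and 1.18 CPM to 4.05 and 4.95 CPM. Glyma13g31650.1 stayed between 22.9 and 43.0 CPM in BC and went from 25.0 and 32.0 CPM to 58.6 and 70.1 CPM in W. In these models the lines overlapped over both hours together. Glyma07g38540.1 was at 6.27 and 7.42 CPM in BC at 4 h and 16.3 and 18.6 CPM at 8 h, against 10.95 to 11.97 CPM in W throughout. Glyma05g36210.1 was at 3.89 to 6.16 CPM in the 4 BC libraries and went from 10.2 and 15.3 CPM to 3.07 and 3.79 CPM in W. All 4 had an edgeR adjusted p of 1.00.

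The 12 libraries of 0, 24 and 48 h, 6 per line, took no part in the choice of the 18 and hold the same comparison at other times. All 18 had the same sign there as at 4 and 8 h, against 54.4% of all models tested. Of the 18, 11 were called there (edgeR, adjusted p below 0.05), where 27 of 37614 models, or 0.0718%, were called in all, and 13 of the 18 did not overlap between the lines, against 0.237% of all models. In the 8 libraries of 24 and 48 h alone, 10 of the 18 were called, where 14 models, or 0.0372%, were called in all. The shared models were 61.1% of the early list and 40.7% of the 27, and 55.6% of the early list and 71.4% of the 14. At an unadjusted p below 0.05 (edgeR), 17 of the 18 passed at 0, 24 and 48 h, where 772 of 37614 models did. At 24 and 48 h alone 16 of the 18 passed, where 3791 of 37613 models did. The absolute log2 fold changes of the 18 at 0, 24 and 48 h had a median of 2.36, and 14 of the 18 had a larger one at 4 and 8 h. The 18 were picked as the most different of the early libraries, so a smaller value elsewhere follows in part from the choice.

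**Figure D3:**
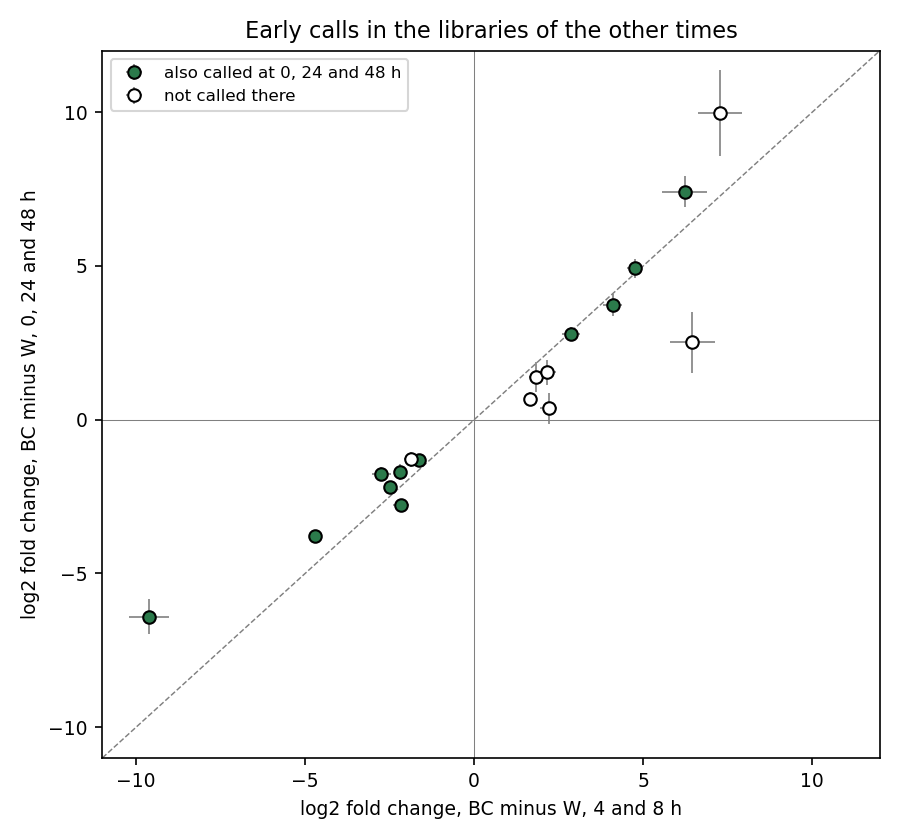
Log2 fold change of BC against W of the 18 models at 4 and 8 h (horizontal) and at 0, 24 and 48 h (vertical), with standard errors as bars and equality as a dashed line. Filled points are the 11 models also called at the other times. All 18 lie in the quadrants of equal sign. The points furthest from the line are at 6.45 against 2.52, -9.63 against -6.41 and 7.28 against 9.98.

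The 11 models called at both sets of times differed in the same direction in each. Glyma06g43880.1 ranged from 22.0 to 53.0 CPM in the 6 other BC libraries and from 0.892 to 2.71 CPM in W (log2 fold change 4.92, edgeR adjusted p = 4.20e-05). Glyma06g44010.1 ranged from 0.871 to 2.30 CPM in BC and from 13.7 to 20.4 CPM in W (-3.79, 2.19e-05). The lines were apart at each time in both models, uninfested leaves included. Glyma13g27090.1 averaged 4.87 ± 1.20 CPM in BC against 21.8 ± 1.25 CPM in W (SD, n = 6 each), close to its early means of 3.83 ± 0.698 and 21.8 ± 2.10 CPM (SD, n = 4 each). Glyma14g17850.1 differed by more at the other times, by a log2 fold change of -2.79 (edgeR adjusted p = 4.33e-05) against -2.17 early. Glyma13g25990.1 had 260 reads in BC and 1 in W at the other times, and Glyma02g34480.1 averaged 3.06 ± 1.09 CPM in BC against 0.224 ± 0.0873 CPM in W (SD, n = 6 each). Glyma11g12980.1, without a read in early BC, had 7 reads in BC at the other times, 4 of them in replicate 2 at 0 h, against 754 in W. The others, Glyma13g25970.1, Glyma09g41100.1, Glyma06g47340.1 and Glyma13g32380.1, had log2 fold changes of 2.80, -1.71, -1.298 and -1.77 there, against 2.86, -2.19, -1.64 and -2.75 early. In BC, Glyma09g41100.1 was higher at 0 h, at 15.7 and 36.0 CPM, than at 24 and 48 h, at 9.61 to 11.8 CPM, and it stayed below W at all of these times.

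The 7 models called at 4 and 8 h but not at 0, 24 and 48 h fell into different kinds. Of these, only Glyma02g11610.1 had an unadjusted p above 0.05 there (0.487, edgeR). Glyma13g25800.1 differed there too, with 629 reads in BC and 0 in W, but its BC libraries ranged from 0.452 to 11.8 CPM and it did not pass (edgeR adjusted p = 0.181). Glyma13g33040.1 and Glyma13g29630.1 kept log2 fold changes of -1.29 and 1.54 (edgeR adjusted p = 0.181 and 1.00). Glyma01g05130.1 was at 1.52 to 3.36 CPM in all 6 other BC libraries and at 0 in 4 of the 6 W libraries. The other W libraries held 92 reads (2.57 CPM, replicate 2 at 0 h) and 10 reads (0.606 CPM, replicate 1 at 24 h). Glyma11g21310.1 varied widely within each line at the other times, from 4.14 to 45.1 CPM in BC and from 2.12 to 14.6 CPM in W, with a log2 fold change of 1.38 (edgeR adjusted p = 1.00) against 1.83 early.

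The other 2, Glyma13g24470.1 and Glyma02g11610.1, had the smallest fold changes of this group over the other times together. The lines overlapped there in both, as they did in Glyma13g29630.1, Glyma01g05130.1 and Glyma11g21310.1. Glyma13g24470.1 was at 16.8 to 42.4 CPM in BC and 13.3 to 30.3 CPM in W there, a log2 fold change of 0.67 (edgeR adjusted p = 1.00) against 1.64 early. In the order 0, 4, 8, 24 and 48 h, the W means were 16.8, 10.5, 8.42, 15.3 and 26.6 CPM and the BC means 27.2, 36.5, 23.1, 36.0 and 28.03 CPM (n = 2 each). Glyma02g11610.1 was at 1.16 and 1.87 CPM in BC and 3.81 and 1.81 CPM in W at 0 h, so the lines overlapped in uninfested leaves. After 4, 8, 24 and 48 h of infestation its BC means were 6.79, 17.1, 8.38 and 3.08 CPM and its W means 1.51, 3.67, 4.13 and 1.65 CPM (n = 2 each). Its log2 fold change was 2.20 early and 0.37 at 0, 24 and 48 h (edgeR adjusted p = 1.00). At 24 and 48 h without 0 h it was 0.93 (edgeR adjusted p = 0.641).

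Whether the early difference itself differed from that at other times was tested over all 20 libraries. Against 0 h, edgeR called 0 models (6886, or 18.3%, at an unadjusted p below 0.05, DESeq2 1235, limma 0), and 7 of the 18 had an unadjusted p below 0.05, the smallest adjusted p among them being 0.166. Against 24 and 48 h, edgeR called 0 (1700, or 4.52%, at an unadjusted p below 0.05, DESeq2 2, limma 0), and 2 of the 18, Glyma13g24470.1 and Glyma06g44010.1, had an unadjusted p below 0.05. For Glyma02g11610.1 the early log2 fold change exceeded that at 0 h by 3.13 (standard error 0.92, edgeR adjusted p = 0.166) and that at 24 and 48 h by 1.27 (standard error 0.71, edgeR adjusted p = 0.960). For Glyma13g24470.1 these values were 0.92 (0.37, 0.223) and 0.97 (0.30, 0.960). For Glyma01g05130.1 the excess over 0 h was 5.83 (1.91, 0.180), and there the W libraries at 0 h had 0 and 92 reads. The DESeq2 calls against 0 h held 2 of the 18, and those against 24 and 48 h held 0 of the 18. With edgeR no model was thus shown to differ only early. Replicate 2 of BC at 0 h, which enters the comparison against 0 h, had the fewest reads in gene models of the 20 libraries (7558768). It also had the largest share of reads outside them (7.46%). Without replicate 1 of BC at 0 h the count against 0 h was 6576, and without replicate 2 of BC at 4 h it was 1029.

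The models called at the other times but not early were 16, and each had the same sign and an unadjusted p below 0.05 at 4 and 8 h. On chromosome 13 they include Glyma13g29650.1, at 0 to 0.206 CPM in the early BC libraries and 1.53 to 2.44 CPM in W, and Glyma13g25940.1, at 0 to 0.178 and 1.496 to 2.57 CPM. Glyma13g32470.1 was at 3.89, 21.3, 6.29 and 2.00 CPM in early BC and at no more than 0.219 CPM in early W. These 3 were apart between the lines in the early libraries, with few reads in 1 line. Others of the 16 had more reads in both lines and smaller early differences. Glyma13g25780.1 was at 7.93 to 9.43 CPM in early BC and 3.30 to 5.15 CPM in early W (log2 fold change 1.05, edgeR adjusted p = 0.196). Glyma13g29730.1 was at 5.46 to 7.90 and 9.64 to 13.5 CPM (-0.85, edgeR adjusted p = 0.305), and Glyma11g15580.1 at 24.7 to 32.2 and 15.3 to 24.0 CPM (0.50, edgeR adjusted p = 0.307). All of these models were chosen from the 16 after their values were seen. Glyma06g46800.1 had 76 early reads in BC and 0 in W, and 139 and 0 at the other times (at least 30.2-fold higher in BC early, edgeR adjusted p = 0.250). Of the 27 models called at 0, 24 and 48 h, 14 lay on chromosome 13.

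By chromosome, the calls at 4 and 8 h were 8 of 2597 tested models on chromosome 13, or 0.308%, and 10 of 35017 elsewhere. A wider set was taken without a p-value: models whose 4 BC and 4 W libraries did not overlap and whose log2 fold change passed 2-fold. It held 398 models higher in BC, or 1.06% of the models tested, and 91 lower, or 0.242%. On chromosome 13 the shares were 1.77% higher and 0.501% lower. The lower share was the highest of the 20 chromosomes, but that of chromosome 6 was nearly equal, 0.499%. Chromosome 16, which had no call, had the highest share of higher models, 1.89%, and none lower.

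**Figure D4:**
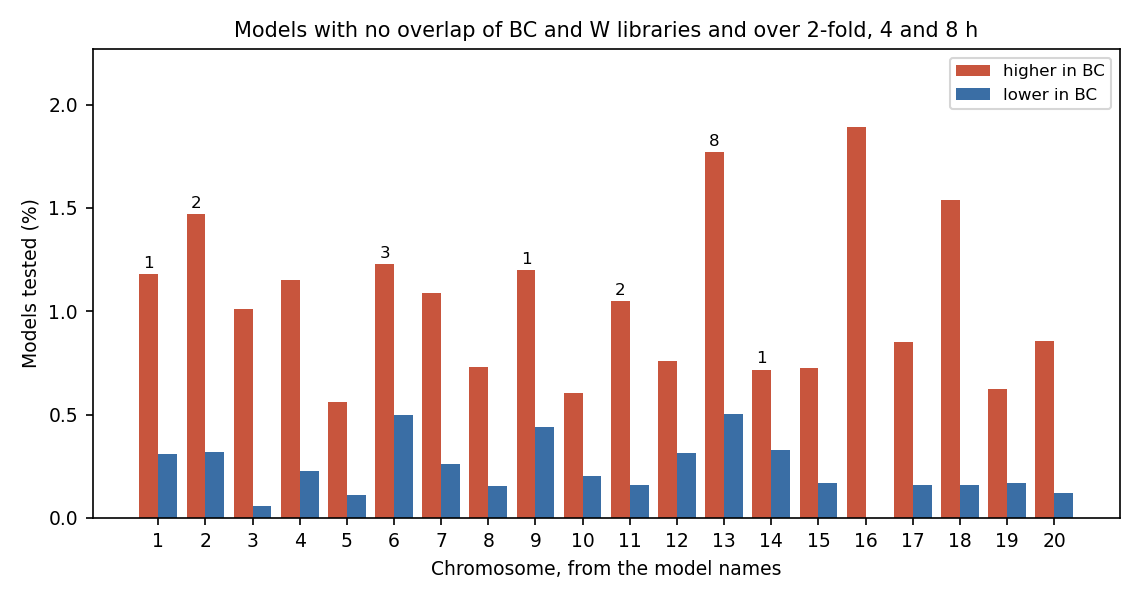
Share of the tested models of each chromosome that were higher (red) or lower (blue) in BC at 4 and 8 h with no overlap of the 4 libraries per line and a difference over 2-fold. The number above a red bar is the count of edgeR calls of both directions on that chromosome, 8 on chromosome 13.

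The wider set was checked in the 8 libraries of 24 and 48 h by the same criteria. There 0.479% of all models were higher and 0.144% lower. Of the 398 higher models 37 met them again in the same direction, or 9.30%, and of the 91 lower models 27, or 29.7%. On chromosome 13 these were 12 of 46 and 7 of 13, and on the other chromosomes 25 of 352 and 20 of 78. On chromosome 6, 5 of 27 higher and 6 of 11 lower models did so, and on chromosome 16, 3 of 26. Over 37613 models the log2 fold changes at 4 and 8 h and at 24 and 48 h had a Pearson correlation of 0.42 and a Spearman correlation of 0.36, which is across models, and models are not independent replicates.

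Along chromosome 13 the models of the wider set were concentrated between locus numbers 24000 and 28000. This stretch held 254 tested models, 5 of the 8 calls and 20 models of the wider set, 17 higher and 3 lower, or 7.87%. In the other 11 stretches of 4000 locus numbers the share lay between 0% and 3.38%. Of the 20, 11 met the criteria again at 24 and 48 h. The stretch between 4000 and 12000 also held 11 models of the wider set, and none of them met the criteria at the later times.

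**Figure D5:**
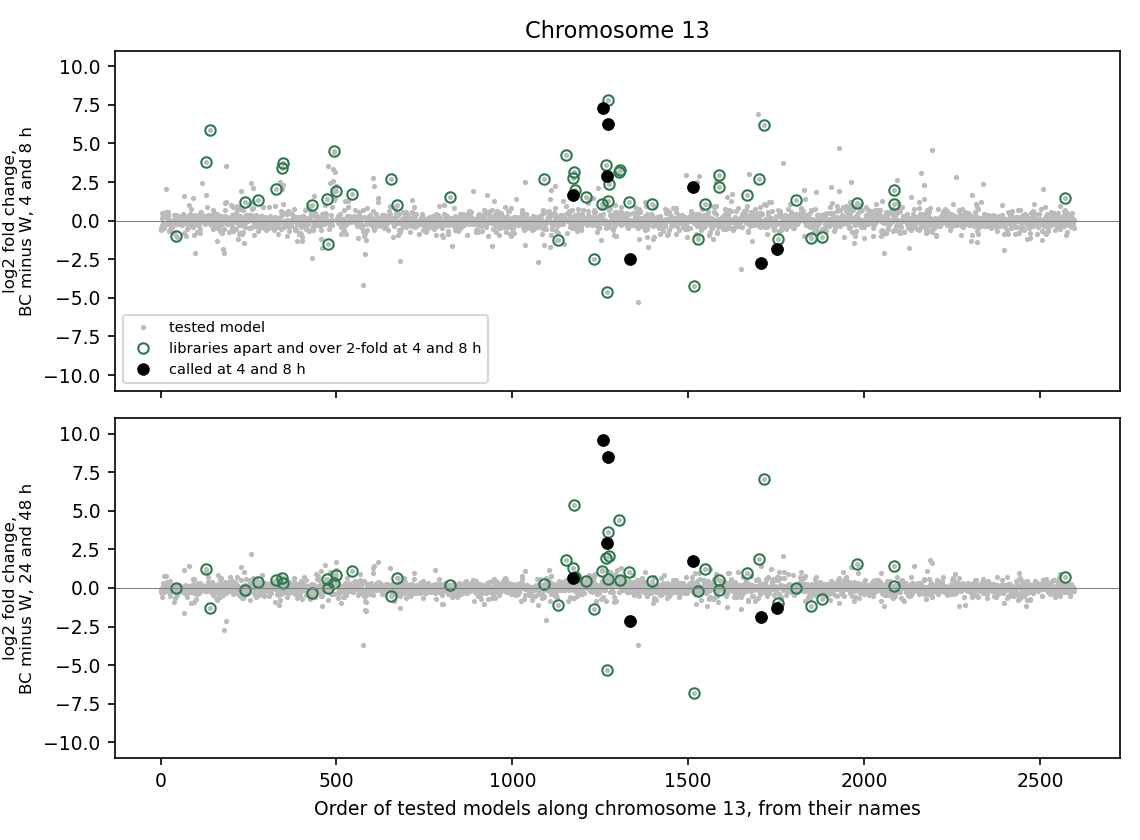
Log2 fold change of BC against W for the tested models of chromosome 13 in the order of their names, at 4 and 8 h (upper panel) and at 24 and 48 h (lower panel). Black points are the 8 calls at 4 and 8 h and green circles the models apart and over 2-fold there. Many circles around the black points remain away from 0 in the lower panel, while most circles in the left part of the upper panel lie near 0 in the lower one.

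Inside this stretch the calls lay among models that did not pass at 4 and 8 h. In the run from Glyma13g25930.1 to Glyma13g26010.1, Glyma13g25940.1 had a log2 fold change of -4.65 (edgeR adjusted p = 0.0880), between neighbours with values of the other sign. Glyma13g25930.1 was at 0.206 to 0.976 CPM in BC and 0 to 0.122 CPM in W (3.62, edgeR adjusted p = 0.305), and Glyma13g25950.1 at 3.40 to 4.78 CPM in BC and 1.34 to 2.68 CPM in W (0.87, edgeR adjusted p = 0.320). Next came the calls Glyma13g25970.1 and Glyma13g25990.1. Glyma13g25980.1, between them, had 98 reads in early BC and 0 in early W (at least 38.9-fold higher, edgeR adjusted p = 0.124). Glyma13g26010.1 was at 1.26 to 2.00 CPM in BC and 0.0611 to 0.487 CPM in W (log2 fold change 2.39, edgeR adjusted p = 0.305). Near by, the lines overlapped in Glyma13g25860.1 and Glyma13g25870.1, at 32.3 to 41.9 against 29.6 to 40.6 CPM and at 56.7 to 67.8 against 52.6 to 70.6 CPM. These neighbours were chosen after their values were seen.

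DESeq2, run on the same 8 libraries and design, called 816 models, 696 higher and 120 lower in BC, or 2.17% of those tested, among them all 18. Those that edgeR did not call were 686 higher and 112 lower. The higher ones were uneven between the BC libraries. Over the 686 the median level above the W mean was 2.52 and 2.54 on the log2 scale in the libraries that stood apart (replicate 1 at 4 h and replicate 2 at 8 h). It was 0.52 in replicate 2 at 4 h and 1.20 in replicate 1 at 8 h. The 112 lower ones were more even, with medians of -1.19, -0.68, -0.93 and -1.21 in replicates 1 and 2 at 4 h and replicates 1 and 2 at 8 h. At 24 and 48 h, 552 of the 686 (80.5%) and 96 of the 112 (85.7%) had the same sign. Of all models with a positive early log2 fold change 60.9% were positive there, and of those with a negative one 60.9% were negative. DESeq2 called 59 and 18 of the 686 and 112 there, where it called 385 of all models, or 1.02%. The part of the libraries that stood apart in these calls was not tested beyond these values.

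Models with no read at all in the 4 early libraries of 1 line, and at least 20 reads in the other, numbered 12, a list made after the values were seen. In 8 of them W had no read, and in 4 BC had none. Glyma11g12980.1 was the 1 called. In only 2 was the line also without a read at the other times: Glyma06g46800.1 in W, and Glyma02g32070.1 in BC, which had 78 early reads and 56 reads at the other times, all in W. In the other 10 the line without early reads had at least 1 read at the other times. For some it stayed near 0 there: Glyma02g32060.1 had 1 in BC against 22 in W, Glyma13g25980.1 had 9 in W against 148 in BC, and Glyma11g12980.1 had 7 in BC against 754 in W. In others the early reads came mostly from 1 BC library. Glyma06g40920.1 had 242 early reads in BC, 94.2% of them in replicate 2 at 8 h, and 102 reads in W at other times.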

How the data were processed

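RNA was extracted with Trizol, made into barcoded mRNA libraries with an Illumina kit and sequenced on an Illumina HiSeq, per the labels' protocols. The authors deposited raw read counts per gene model in 1 table with 1 column per library. The submitters' processing notes name edgeR, Cuffdiff 1.3.0, HTSeq 0.5.3 and TopHat 1.4.1. The build, annotation release and strand setting are not given in the sources used here, so reads of overlapping or antisense models cannot be told apart. The table's 5 summary rows were not used. In the early libraries reads outside gene models were 3.33% to 4.87% and ambiguous reads 1.43% to 1.79%. Multiple alignments total 0 reads in each library, so values of near-identical copies are uncertain. Both lines were counted on the same models, and the effect of sequence differences between them on the counts was not tested.

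Columns were assigned by the line, hour and replicate in their names, and columns W and BC could not be tied to rag2 or Rag2. Low counts were filtered with filterByExpr (groups of line and hour), and libraries were scaled by TMM. The test was the robust quasi-likelihood F test of edgeR 4.0.16 in R 4.3.3, two-sided, with hour and line as terms (5 residual degrees of freedom) and Benjamini-Hochberg adjustment over all models tested at a threshold of 0.05. Single hours and the interaction came from a model of 4 groups, and differences between early and other times from a model of 10 groups over 20 libraries. The comparisons at other times used their own libraries and the models tested early. DESeq2 1.42.0, limma 3.58.1 and other filters, scalings, blocks and left-out libraries were tried as alternatives. CPM are TMM-scaled, and the log2 CPM of the principal components used a prior count of 2. The principal components and correlations describe the 8 early libraries. P-values of the models of 4 and 10 groups measure the spread between biological replicates as labelled. Those of the fits with time and line as terms also count a change of the line difference between times as spread.

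The rule for named models took the calls of the main comparison (up to 14 per direction by adjusted p, with the 4 of largest change per direction and the 4 of highest mean), here all 18, and the 4 smallest interaction p, as none was called. Neighbours on chromosome 13, models at the threshold, models called at other times and models without reads are named beside it. The 29 gene lists by function and the tissue markers drawn up for this work could not be resolved without gene names, so none was tested. The comparison, the lists and the tests were chosen with earlier results of these data known.

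On simulated counts the test of BC against W at 4 and 8 h recovered most 4-fold and few 2-fold changes, with more false calls than the threshold aims at, and the interaction test recovered none. The test of the early difference against that at 0 h recovered some 4-fold and few 2-fold changes. The biological coefficient of variation of the early libraries was 0.285.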

Additional observations from a re-analysis of the deposited data

Results flagged for a closer look

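In the 4 early libraries of each line, none of the 22 named models had a library far from the others (by Dixon's test of the gap to the nearest library as a share of the line's range, on the log2 scale). In the 6 libraries of 0, 24 and 48 h, 8 of 44 groups had one. The test's nominal rate of about 1 in 20 does not apply directly. Each group mixes different times, and the groups share libraries.

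In 4 models the library was replicate 2 of BC at 0 h. Of the 20 libraries, it had the fewest reads in gene models (7558768) and the largest share of reads outside them (7.46%). Glyma02g34480.1 was at 0.861 CPM in it, against 3.20 to 3.70 CPM in the other 5 BC libraries. Glyma06g44010.1 was at 2.30 CPM (0.871 to 1.17 in the others), Glyma09g41100.1 at 36.0 CPM (9.61 to 15.7) and Glyma11g12980.1 at 0.574 CPM (0 to 0.0499). In each of these the library lay towards the level of W, and the lines did not overlap. The 8 early libraries do not include it, and whether its depth bears on these values was not tested.

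Glyma13g25800.1 was at 0.452 CPM in replicate 1 of BC at 24 h, against 4.43 to 11.8 CPM in the others. Glyma13g25990.1 was at 0.0384 CPM, 1 read, in replicate 1 of W at 0 h, and W had no read of it in the other libraries of these times. Glyma05g36210.1 was at 28.5 CPM in replicate 2 of BC at 24 h (3.59 to 6.95 in the others) and at 50.3 CPM in replicate 1 of W at 24 h (4.92 to 10.4).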

How the results depend on the processing

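For BC against W at 4 and 8 h the count of 18 was the same with size factors of the DESeq2 kind and 19 with a minimum of 1 CPM in 4 libraries. It was 30 with no filter on low counts, 37 in a fit to all 20 libraries (13 of the 18 among them), 816 in DESeq2, 21 in limma with library weights, and 8 with the 2 BC libraries that stood apart left out. With the first principal component of the residuals as a covariate, an alternative that removes spread by its construction, it was 2233. Leaving out 1 library gave 5 to 934. Of the 342 values of the 18 models under 19 alternatives, 234 kept their side of the threshold, 108 lost it and 0 changed sign. The cause of these changes was not tested.

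With no filter the count was 12 at 4 h, 10 at 8 h and 26 at 24 and 48 h. DESeq2 gave 44 at 4 h, 104 at 8 h, 1 for the interaction, 61 at 0, 24 and 48 h, 385 at 24 and 48 h, 1235 for the early difference against 0 h and 2 against 24 and 48 h. Limma with library weights gave 1 at 4 h, 0 at 8 h (3761 with an unadjusted p below 0.05, where edgeR called 2) and 47 at 24 and 48 h. Leaving out 1 library gave 0 to 2 at 4 h and at 8 h, 0 for the interaction, 17 to 25 at 0, 24 and 48 h (17 without replicate 1 of W at 48 h), 8 to 12 at 24 and 48 h, 0 to 6576 against 0 h and 0 against 24 and 48 h. The 24 and 48 h count fell to 8 when replicate 2 of W at 48 h was left out, and to 9 without replicate 2 of BC at 24 h or replicate 1 of BC at 48 h. Chosen after seeing the data were the crossed block, the covariate, the 2 libraries left out together, and DESeq2 and limma for comparisons other than BC against W at 4 and 8 h.

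Deviations of same-numbered W and BC libraries correlated across models at -0.416 at 4 h and -0.0885 at 8 h. With 2 replicates per line and hour, these values cannot decide whether the replicate numbers pair the samples. With the replicate number as a block, the count at 4 and 8 h was 3 (pairs within the hour) or 10 (number as a term), with numbers crossed at 4 h it was 144, and at the single hours 4 and 8 h it was 0 and 0 (934 and 2530 at an unadjusted p below 0.05). With the block the other counts were 24 at 0, 24 and 48 h, 10 at 24 and 48 h, and 0 for the interaction and for both differences between times.

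The limits are the 2 replicates per line and hour, the uneven BC libraries, models uneven between the W libraries and models with few reads. In 3 early calls, Glyma01g05130.1, Glyma13g25800.1 and Glyma13g25990.1, W had 2 reads each, so the size of their difference is poorly known. The intervals given cover counting error and leave out the spread between replicates.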
